A study of Mus musculus with 4 samples.

Results

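Checkpoint receptors and TNF family costimulation genes of T cells were described by 7 genes, Pdcd1, Lag3, Cd200, Cd27, Tnfrsf9, Tnfrsf1b and Tnfsf8, measured on 4 expression arrays. The members were every probe set that the platform annotation gives to one of these symbols alone, which found 10 probe sets among 22690 on the array, for 7 of 12393 named genes. Pdcd1, Lag3, Cd200, Cd27 and Tnfsf8 each had 1 probe set, Tnfrsf1b had 2 and Tnfrsf9 had 3.

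The arrays (Affymetrix MOE430A_2.0) held RNA of T cells sorted by flow cytometry from the spleens of untreated C57Bl/6 mice, for a study that set Gfi1 knockout cells beside wildtype cells and stated naive cells as its aim. The product of Gfi1 is a DNA-binding zinc finger protein that represses transcription in blood cells. There were 4 groups, CD4 and CD8 cells labelled Gfi1 knockout and CD4 and CD8 cells labelled wildtype, all described as CD44lo and each measured on 1 array made from pooled RNA of 2 mice. The labels give neither the age of the mice, nor the kind of knockout allele, nor whether both subsets came from the same mice, and the titles of the knockout arrays end in N and those of the wildtype arrays in M without a statement of what the letters mean.

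T cells need a second signal beside the antigen receptor, and the genes described here encode receptors and ligands that raise or restrain it. PD-1 (Pdcd1) and LAG-3 (Lag3) are inhibitory receptors of the immunoglobulin superfamily that T cells carry after activation and keep under lasting antigen exposure, and CD200 is a membrane glycoprotein of the same superfamily that restrains cells bearing its receptor. CD27, 4-1BB (Tnfrsf9) and TNF receptor type II (Tnfrsf1b) are TNF receptor family members that signal through TRAF adaptors, and the CD30 ligand (Tnfsf8) is a TNF family ligand.

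Several facts of the whole series bear on every value below. Gfi1 signal was 2891 in CD4 and 2447 in CD8 cells on the arrays labelled knockout, against 2272 and 1158 on those labelled wildtype, so it was not lower where the label says knockout; the labels do not say whether the probe set lies in the deleted part. Cd44 went against a label, with signals of 196.2 and 252.4 on the knockout arrays and 8136 and 5740 on the wildtype arrays in CD4 and CD8 cells. The genotype label and the level of Cd44 RNA therefore cannot be told apart on these arrays, and each group is named below as labelled. Cd4 and Cd8a matched the subset labels. Signals are linear and of arbitrary unit, and those up to 93.9, the 40th percentile of all values, were set to that floor before log2. With 1 array per group there is no spread between animals and no test within a subset.

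Of the 7 genes, 5 were at least 2-fold lower in CD4 cells labelled knockout than in CD4 cells labelled wildtype: Pdcd1, Lag3, Cd200, Tnfrsf9 and Tnfrsf1b. Among all 8124 genes above the floor on at least 1 of these arrays, 7.72% were that much lower, and 2.07% were at least 2-fold higher, against 0 of the 7. The members were chosen with earlier results of these data known, so such shares are a background and not a test. In CD8 cells 1 of the 7, Cd200, was measured at least 2-fold lower, against 4.24% of 8085 genes, and 0 were 2-fold higher, against 1.21%. Pdcd1 and Lag3 have only bounds there, with the knockout array at the floor, and the count was 3 with a floor at the 25th percentile, without a floor or with a pseudocount of 16, and 0 with a floor at the 60th percentile, after quantile normalization or with the arrays centred on their medians. The median log2 difference of the 7 genes was -1.75 in CD4 and -0.50 in CD8 cells, beside -0.02 over all genes in each subset; the CD8 median takes Pdcd1 and Lag3 at their bounds. In both subsets 6 of the 7 were lower by any size, as were 31.8% of 7613 genes, 3 were at least 1.5-fold lower in both, as were 5.32%, and 1 at least 2-fold, as were 2.34%. In bulk RNA, fewer cells of a type and less RNA per cell cannot be told apart.

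**Figure D1:**
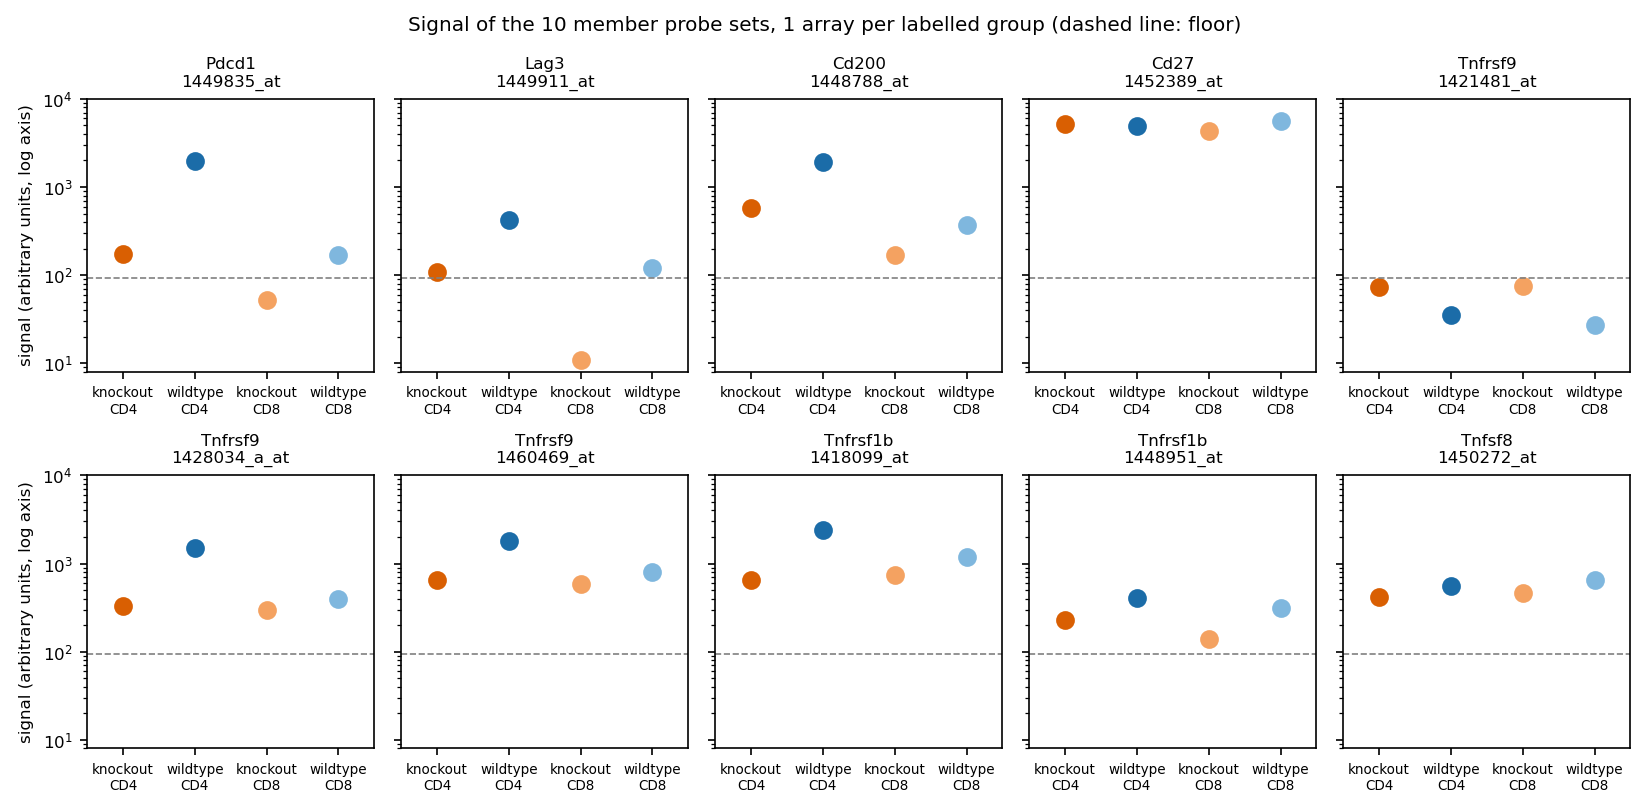
Signal of each of the 10 probe sets (log axis, arbitrary units) on the 4 arrays, with 1 point per array and a dashed line at the floor of 93.9. The wildtype CD4 array is the highest for Pdcd1, Lag3, Cd200, both Tnfrsf1b probe sets and the pair of Tnfrsf9 probe sets above the floor, while Cd27 stays between 4375 and 5648.

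Pdcd1 (1449835_at) showed the largest difference of the 7 genes in CD4 cells. Its signal was 174.5 on the knockout CD4 array and 1966 on the wildtype CD4 array, 51.9 on the knockout CD8 array and 168.3 on the wildtype CD8 array. The wildtype CD4 array stood 11.3-fold above the next one, and the knockout CD8 array lay below the floor. The log2 difference between the labelled genotypes was -3.49 in CD4 cells, and 39 of 8124 genes were as low or lower. In CD8 cells Pdcd1 was at least 1.79-fold lower on the knockout array.

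Lag3 (1449911_at), whose product binds MHC class II, had the same array on top. It read 109.1 on the knockout and 422.5 on the wildtype CD4 array, and 10.8 on the knockout and 119.8 on the wildtype CD8 array. The knockout CD4 and the wildtype CD8 array lay close to each other and just above the floor, and the knockout CD8 array lay below it. Lag3 was 3.87-fold lower on the knockout array in CD4 cells and at least 1.28-fold lower in CD8 cells. With the floor at the 60th percentile its CD4 log2 difference was 0.0, since both CD4 arrays then lay at the floor.

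Cd200 (1448788_at) was the member at least 2-fold lower in both subsets by its gene's brightest probe set. Its signal was 580.0 against 1946 in CD4 cells and 168.7 against 375.3 in CD8 cells, knockout against wildtype. All 4 values lay above the floor, and both CD4 arrays stood above both CD8 arrays. The differences were 3.36-fold in CD4 cells and 2.22-fold in CD8 cells.

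Promoters of genes of this group that differed together are shown beside that of Cd27, which was near level in CD4 cells. Matches to the core letters that the Gfi1 protein binds are in capitals (AATC, or GATT where it lies on the other strand). Each is the 250 bases before a gene's annotated start, 5′ to 3′ on the gene's strand, from RefSeq on GRCm38.p6, and all of these genes lie on the minus strand: Pdcd1 at chr1:94052554-94052803, Cd200 at chr16:45409054-45409303, Tnfrsf1b at chr4:145246871-145247120 and Cd27 at chr6:125237028-125237277.
Pdcd1: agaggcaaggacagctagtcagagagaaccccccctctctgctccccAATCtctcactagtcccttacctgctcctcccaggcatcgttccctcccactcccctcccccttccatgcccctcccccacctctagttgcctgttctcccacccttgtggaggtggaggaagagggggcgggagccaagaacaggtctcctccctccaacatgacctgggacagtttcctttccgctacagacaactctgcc
Cd200: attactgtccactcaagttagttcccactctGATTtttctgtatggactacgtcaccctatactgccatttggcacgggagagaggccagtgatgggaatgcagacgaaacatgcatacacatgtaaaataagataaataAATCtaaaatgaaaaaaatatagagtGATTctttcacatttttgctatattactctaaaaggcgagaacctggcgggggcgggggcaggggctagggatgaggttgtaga
Tnfrsf1b: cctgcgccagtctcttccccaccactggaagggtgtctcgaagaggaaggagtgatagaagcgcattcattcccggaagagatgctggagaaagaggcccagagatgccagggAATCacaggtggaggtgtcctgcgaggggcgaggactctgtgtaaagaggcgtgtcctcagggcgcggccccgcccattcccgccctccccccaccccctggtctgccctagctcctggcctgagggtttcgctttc
Cd27: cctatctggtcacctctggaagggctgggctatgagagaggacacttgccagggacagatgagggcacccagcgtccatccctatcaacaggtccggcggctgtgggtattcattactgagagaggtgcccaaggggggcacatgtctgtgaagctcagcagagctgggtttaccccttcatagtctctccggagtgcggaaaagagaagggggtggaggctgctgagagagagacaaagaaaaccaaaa

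Each motif was searched on both strands. AATC was found 1 time before Pdcd1, 3 times before Cd200, 1 time before Tnfrsf1b and 0 times before Cd27, and 69.0% of 32851 promoter windows of this length held it. Tnfrsf9, with 3 matches before each of its 2 annotated starts, and Tnfsf8, with 1, also held it. Among members with a promoter entry, Cd27 alone held none, so the printed contrast is with the only member without a match. Whether the matches relate to the signal differences was not tested. The NFAT core GGAAA was found 2 times before Pdcd1, 1 time before Cd27 and Tnfsf8 each, 2 and 3 times before the starts of Tnfrsf9 and 0 times before Cd200 and Tnfrsf1b (55.6% of windows), and the AP-1 motif TGANTCA 1 time, before the second start of Tnfrsf9 (6.75%). Matches of different motifs may overlap, and a match describes letters and not a binding site. The promoter table matched 6 of the 7 genes, the other being Lag3.

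Among the TNF receptors, Tnfrsf9 and Tnfrsf1b were lower with the knockout label in both subsets. Cd27 was near level in CD4 cells and 1.29-fold lower in CD8 cells. Tnfrsf9 encodes 4-1BB, a costimulatory receptor induced on activated T cells. Its brightest probe set (1460469_at) read 656.4 on the knockout and 1816 on the wildtype CD4 array, and 579.7 on the knockout and 810.9 on the wildtype CD8 array. The wildtype CD4 array stood 2.24-fold above the next and the other arrays lay closer together. The differences were 2.77-fold in CD4 and 1.4-fold in CD8 cells. A further probe set (1428034_a_at) read 329.8, 1489.5, 300.5 and 400.5 in the same order, 4.52-fold and 1.33-fold lower with the knockout label. The last one (1421481_at) read between 26.9 and 74.7, below the floor on all 4 arrays, and gives no fold.

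Tnfrsf1b encodes TNF receptor type II, the TNF receptor that activated and regulatory T cells carry at a high level. Its brighter probe set (1418099_at) read 649.6 on the knockout and 2398 on the wildtype CD4 array, and 739.0 on the knockout and 1201 on the wildtype CD8 array. Both wildtype arrays stood above both knockout arrays. The differences were 3.69-fold in CD4 and 1.63-fold in CD8 cells. The other probe set (1448951_at) read 227.6 and 407.9 in CD4 cells and 138.4 and 308.9 in CD8 cells. It kept the direction, but with the larger difference in CD8 cells (2.23-fold) and not in CD4 cells (1.79-fold), so the probe sets disagree on which subset differed more.

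Cd27 (1452389_at), a costimulatory receptor gene of T cells that are still naive, had signals of 5161 and 4902 in CD4 cells and 4375 and 5648 in CD8 cells, knockout and wildtype. The 4 arrays lay within a narrow range, and the labelled genotypes overlapped. It was 1.05-fold higher in CD4 cells and 1.29-fold lower in CD8 cells labelled knockout, and its fitted difference over both subsets turned from -0.15 to 0.12 when the arrays were centred on their medians.

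Tnfsf8 (1450272_at), the CD30 ligand gene, read 413.7 against 559.0 in CD4 cells and 461.2 against 650.4 in CD8 cells, knockout against wildtype. Both knockout arrays lay below both wildtype arrays, by 1.35-fold and 1.41-fold. Of the 7 genes, Tnfsf8 and Cd27 had a larger difference between the labelled genotypes in CD8 than in CD4 cells, and the other 5 had the larger one in CD4 cells. For Pdcd1 and Lag3 the CD8 value is a bound. Without the floor Pdcd1 kept this order, with CD4 and CD8 log2 differences of -3.49 and -1.70, and Lag3 turned it, at -1.95 and -3.47. These differences between the subsets were not tested.

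**Figure D2:**
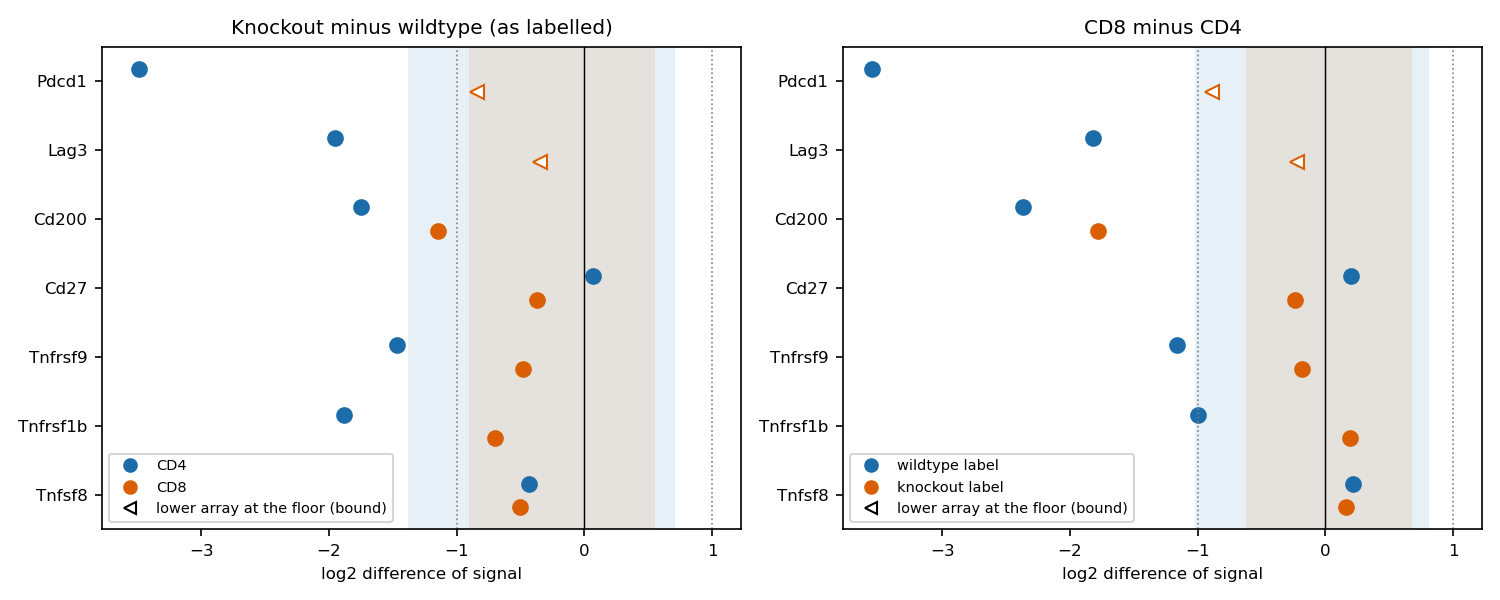
Log2 difference of signal for each of the 7 genes, by its brightest probe set: on the left knockout minus wildtype label in CD4 and CD8 cells, on the right CD8 minus CD4 on the arrays of each label. Open triangles are bounds with the lower array at the floor, dotted lines mark 2-fold, and shaded bands span the 5th to the 95th percentile of all genes, from -1.38 to 0.71 in CD4 and from -0.90 to 0.55 in CD8 cells on the left; Pdcd1, Lag3, Cd200, Tnfrsf9 and Tnfrsf1b lie below the CD4 band.

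Over both subsets, limma (lmFit and eBayes with trend, subset as a covariate, Benjamini-Hochberg adjustment over 8596 genes) called 0 of the 7 genes at an adjusted p under 0.05, a threshold that 0.547% of all genes passed (0.465% lower and 0.0814% higher). At an unadjusted p under 0.05 it found 5 of the 7, beside 13.1% of all genes. Cd200 came nearest, with a log2 effect of -1.45 ± 0.30 (SE, 4 arrays; lower on 2 of 2 pairs of arrays; limma adjusted p = 0.107), followed by Tnfrsf1b (-1.29 ± 0.30, adjusted p = 0.144) and Pdcd1 (-2.17 ± 0.62, adjusted p = 0.203). The adjusted p was 0.221 for Tnfrsf9, 0.311 for Lag3, 0.537 for Tnfsf8 and 0.762 for Cd27. For Pdcd1 and Lag3 the knockout CD8 array entered at the floor, so their fitted effects and errors rest partly on a bound. With 1 residual degree of freedom, the fit counts a difference between the subsets as error. Without the floor it called Cd200 (0.00438), Pdcd1 (0.00333), Tnfrsf1b (0.00651) and Tnfrsf9 (0.0319); over all 10 alternatives the adjusted p of Cd200 ran from 0.00438 to 0.416, that of Pdcd1 from 0.00333 to 0.394 over 9, that of Tnfrsf1b from 0.00114 to 0.319 and that of Tnfrsf9 from 0.0198 to 0.436.

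On the wildtype arrays, 4 of the 7 genes were at least 2-fold lower in CD8 than in CD4 cells, against 5.15% of 8333 genes, and 0 were 2-fold higher, against 3.20%. These were Pdcd1 (11.7-fold; 7 genes were as low or lower), Cd200 (5.19-fold; 42 genes), Lag3 (3.53-fold) and Tnfrsf9 (2.24-fold). Tnfrsf1b lay just short of the line, at a log2 difference of -1.0, and Cd27 and Tnfsf8 were slightly higher in CD8 cells, at 0.20 and 0.22. On the knockout arrays 1 of the 7, Cd200, was measured past the line, at 3.44-fold, where 1.40% of 7810 genes were, and 16 genes were as low or lower; 0 were 2-fold higher, against 2.14%. That count was 3 with the lower floor, without a floor or with the pseudocount, 2 after either scaling and 0 with the higher floor. Whether the subsets differed more on the arrays of one label than of the other was not tested.

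For Pdcd1 and Lag3 the knockout arrays give bounds, at least 1.86-fold and at least 1.16-fold lower in CD8 cells, both with the CD8 array at the floor. Without the floor their log2 differences were -1.75 and -3.34, beside -1.78 for Cd200. Tnfrsf9 had a log2 difference of -0.18, Cd27 of -0.24, Tnfsf8 of 0.16 and Tnfrsf1b of 0.19. The second probe set of Tnfrsf1b gave -0.72 there, so its direction is not settled. Limma, with the labelled genotype as a covariate, called 0 of the 7 genes between the subsets (0.244% of all genes, 0.0698% lower and 0.174% higher in CD8 cells), and 3 of 7 had an unadjusted p under 0.05 (9.56% of all genes). Cd200 came nearest, at -2.08 ± 0.30 (SE, 4 arrays; limma adjusted p = 0.0845, and from 0.000237 to 0.357 over 10 alternatives).

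In order of level, the wildtype CD4 array came first for 5 of the 7 genes, as it did for 32.9% of the 8596 genes above the floor on any array, and the wildtype CD8 array for Cd27 and Tnfsf8. For Pdcd1 and Cd200 the knockout CD4 array came next, then wildtype CD8 and knockout CD8. For Lag3 and Tnfrsf9 the wildtype CD8 array came next, then knockout CD4 and knockout CD8. With 1 array per group, no spread is at hand to say which neighbours in these orders differ.

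Several marker lists of T cell states differed between the same arrays. Over all genes, 7.72% in CD4 and 4.24% in CD8 cells were at least 2-fold lower with the knockout label, and 2.07% and 1.21% higher. These shares are the background of the marker counts here and of those for other cells below. Of 12 measured markers of CD44-high memory and effector cells, such as Cxcr3 and S100a4, 12 were at least 2-fold lower with the knockout label in CD4 cells and 12 in CD8 cells; their summed signal was 3131 and 13196 on the knockout CD4 and CD8 arrays and 74763 and 73696 on the wildtype arrays. Of 9 markers of regulatory T cells, which carry several of these receptors, 7 were at least 2-fold lower in CD4 cells and 0 in CD8 cells, with a sum of 8317 on the knockout and 27847 on the wildtype CD4 array and of 4100 and 3879 on the CD8 arrays. Foxp3, the lineage factor gene, read 221.3 and 823.6 in CD4 cells and lay below the floor in CD8 cells, as did Il2ra, Ikzf2 and Ikzf4. Such genes could not be called in CD8 cells, and 5 of the 9 markers were above the floor on each CD8 array. Of 8 markers of follicular helper cells, which carry PD-1 and CD200 at a high level, 5 were at least 2-fold lower in CD4 and 2 in CD8 cells; their sum was 5264 against 15087 in CD4 and 4905 against 9132 in CD8 cells, knockout against wildtype. Cxcr5, their chemokine receptor gene, read 269.8 and 2754 in CD4 and 388.3 and 1875 in CD8 cells. Maf and Ascl2 lay below the floor on all arrays and Il21 on both CD8 arrays, so they could not be called there. Of 8 markers of naive cells, 5 were at least 2-fold higher with the knockout label in CD4 and 1 in CD8 cells, with sums of 104046 against 41282 and 88030 against 64204. Several list genes are shared between T cell types, and Ctla4, Tnfrsf4, Tnfrsf18 and Icos are also in the pathway lists below. The part of these cell states in the values of the 7 genes was not tested.

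**Figure D3:**
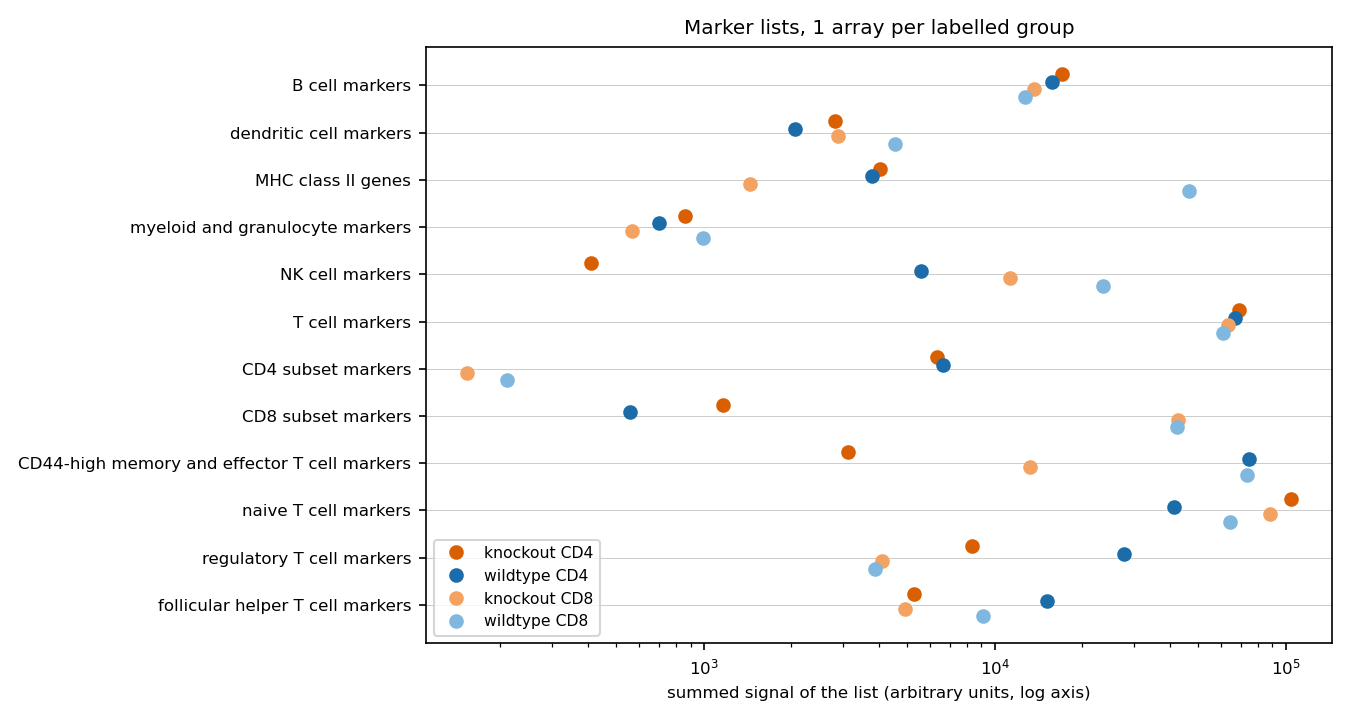
Summed signal of each marker list (log axis, arbitrary units), 1 point per array. Memory and effector markers sum to 74763 and 73696 on the wildtype arrays against 3131 and 13196 on the knockout arrays, regulatory T cell markers are highest on the wildtype CD4 array, and MHC class II genes on the wildtype CD8 array.

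Markers of cells other than T cells differed between the arrays as well. MHC class II genes summed to 46620 on the wildtype CD8 array, against 1443 to 4034 on the other arrays, with Cd74, the invariant chain gene, at 16735 against 592.6 to 1576, and 4 of 7 dendritic cell markers were at least 2-fold lower on the knockout CD8 array. Natural killer cell markers, which effector T cells partly share, summed to 409.7 on the knockout and 5558 on the wildtype CD4 array and to 11276 and 23453 on the CD8 arrays. Of these 7 genes 3 were at least 2-fold lower with the knockout label in CD4 cells, among them Nkg7 (25.1-fold), and 5 in CD8 cells. Ncr1 lay below the floor on all arrays and Klra7 and Klra8 on both CD4 arrays, so they could not be called there. Of 9 B cell markers 5, among them Cd79a, and of 10 myeloid markers 4, among them S100a8, were below the floor on all 4 arrays. Of the others, the B cell gene Cd22 read 154.0 against 1124 in CD4 and 76.3 against 614.6 in CD8 cells, knockout against wildtype, Cd79b read 305.1 to 759.1 on 3 arrays, and Fcgr3 was 2.13-fold higher in CD4 cells labelled knockout. In all 2 B cell markers were at least 2-fold lower in each subset, and the sums, set mostly by 1 Ighm probe set, ran from 12668 to 16990. Myeloid sums ran from 567.3 to 990.6. The part of these cells in the values of the 7 genes, in either subset, was not tested. T cell markers summed to between 60717 and 68793.

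Of the genes around the 7 in the same pathways, 6 lists held 70 genes with a probe set, of which 64 were above the floor on at least 1 array. In CD4 cells 12 of 61 were at least 2-fold lower and 1 higher with the knockout label, beside 7.72% and 2.07% of all genes, with a median log2 difference of -0.30. In CD8 cells 5 of 58 were lower and 1 higher, beside 4.24% and 1.21% of all genes, with a median of -0.11. These shares over all genes are the background of each list's counts below, and the median over all genes was -0.02 in each subset. The lists too were chosen with earlier results of these data known. Limma called 3 of the 64 genes, beside 0.547% of all genes, each lower: Fasl, Tnfsf14 and Slamf7. Fasl and Tnfsf14 were called in 4 of 9 alternatives each and Slamf7 in 3 of 8.

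Of other inhibitory receptors of the immunoglobulin family, 2 of 6 genes were at least 2-fold lower in CD4 cells, Cd160 (10.2-fold, 215.0 against 2193) and Ctla4 (7.67-fold, 585.4 against 4490), a receptor that competes with CD28 for its ligands. In CD8 cells they were 1.65-fold and 1.13-fold lower, and 1 of 8 genes, Havcr2, which encodes TIM-3, was at least 4.43-fold lower, at 34.0 against 415.6. Havcr2 was above the floor on the wildtype CD8 array only, where MHC class II genes and dendritic cell markers also had their highest sums. The part of other cells in its value was not tested. The other probe set of Cd160 above the floor gave 14.8-fold and 2.1-fold. Vsir, which encodes the inhibitory receptor VISTA, was higher with the knockout label, by 1.69-fold and 1.32-fold, and had the smallest limma adjusted p of the list, 0.153. The medians were -0.49 and -0.14, and limma called 0 of the 8, with 3 at an unadjusted p under 0.05, beside 13.1% of all genes.

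Among costimulatory receptors of that family, 2 of 8 were at least 2-fold lower in CD4 and 1 of 8 in CD8 cells. Icos, the inducible costimulator gene, was 3.83-fold lower in CD4 cells (1296 against 4964) and 1.02-fold lower in CD8 cells (895.3 against 910.2); its other probe set was 3.69-fold lower and 1.33-fold higher. Slamf7 read 52.2 against 413.9 in CD4 cells, at least 4.41-fold lower, and 116.5 against 684.5 in CD8 cells, 5.88-fold lower (limma adjusted p = 0.0471, and from 0.00115 to 0.572 over the alternatives). Cd28, the founding member, was near level, at log2 differences of -0.15 and -0.13.

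The ligand of PD-1 that differed was Pdcd1lg2, which encodes PD-L2. It read 80.9 against 1171 in CD4 cells and 71.0 against 204.8 in CD8 cells, knockout against wildtype, with both knockout arrays below the floor. The bounds are 12.5-fold in CD4 cells and 2.18-fold in CD8 cells (limma adjusted p = 0.156), and it was the 1 gene of its list at least 2-fold lower in either subset. Cd274, which encodes PD-L1, was near level at -0.26 and 0.23. Cd200r1, the receptor of CD200, read 296.4 and 463.1 in CD4 cells and 183.5 and 77.1 in CD8 cells, so it was lower with the knockout label in CD4 and higher in CD8 cells.

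TNF receptors outside the 7 held the list genes that were at least 2-fold higher. Fas, the death receptor gene, read 1930 against 1052 in CD4 cells, 1.84-fold higher with the knockout label, and 3059 against 1097 in CD8 cells, 2.79-fold higher (limma adjusted p = 0.0806). Tnfrsf12a was higher by at least 3.61-fold in CD4 cells and by 1.36-fold in CD8 cells, and its other probe set gave 3.13-fold and 2.03-fold. Tnfrsf4, which encodes OX40, was lower by 4.28-fold in CD4 cells and by 1.42-fold in CD8 cells, and Tnfrsf18, which encodes GITR, 2.02-fold lower in CD4 cells and 1.17-fold higher in CD8 cells. In all 2 of 13 genes were at least 2-fold lower and 1 higher in CD4 cells, and 0 of 13 lower and 1 higher in CD8 cells. Tnfrsf8, which encodes the receptor CD30 for the Tnfsf8 product, lay below the floor on all 4 arrays, at 84.6 or less.

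The TNF ligands had the lowest median of the 6 lists in CD4 cells after the costimulatory receptors, at -0.63, and 5 of 12 were at least 2-fold lower there. Tnfsf14, which encodes LIGHT, read 45.9 against 1929 in CD4 cells, at least 20.5-fold lower, and 119.5 against 913.5 in CD8 cells, 7.64-fold lower (limma adjusted p = 0.0313, and from 7.96e-06 to 0.122 over the alternatives). Its dimmer probe set gave at least 5.68-fold and at least 2.66-fold. Tnfsf11, which encodes RANK ligand, read 127.9 against 1831 in CD4 cells, 14.3-fold lower (at least 7.35-fold by the other probe set), and lay below the floor on both CD8 arrays. Fasl, the ligand gene of Fas, read 325.3 against 1879 in CD4 cells, 5.78-fold lower, and 61.0 against 656.1 in CD8 cells, at least 6.99-fold lower (limma adjusted p = 0.0294, and from 1.57e-05 to 0.202). The other Fasl probe set gave 3.4-fold and at least 4.36-fold. Fasl is also in the list of memory and effector markers.

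Ligand genes of the TNF receptors among the 7 were read too. Tnfsf9, the ligand gene of 4-1BB, read 71.6 against 244.1 in CD4 cells, at least 2.6-fold lower, and 80.1 against 115.0 in CD8 cells, at least 1.22-fold lower. Tnf, whose product binds TNF receptor type II, was 4.12-fold lower in CD4 cells (241.9 against 997.8) and 1.27-fold higher in CD8 cells (245.1 against 193.5). Cd70, the ligand gene of CD27, read 100.9 on the wildtype CD4 array and lay below the floor on the other 3.

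Of 14 TRAF adaptor and proximal signalling genes of TNF receptors, 0 were 2-fold apart in either direction in CD4 or CD8 cells, with medians of 0.15 and 0.12. Limma called 0 of them, with 2 of the 14 at an unadjusted p under 0.05, beside 13.1% of all genes. Traf1, an adaptor induced by NF-kB that binds 4-1BB and TNF receptor type II, read 1142 against 2183 in CD4 and 1660 against 2507 in CD8 cells (log2 -0.93 and -0.59; limma adjusted p = 0.111), and Traf2 was at -0.17 and -0.03. On the higher side, Map3k14, which encodes the NF-kB inducing kinase, was at 0.77 and 0.65, Tnfaip3, an inhibitor of NF-kB signalling, at 0.94 and -0.11, and Tank at -0.43 and 0.88. These genes, and Vsir, were picked after their values were seen.

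**Figure D4:**
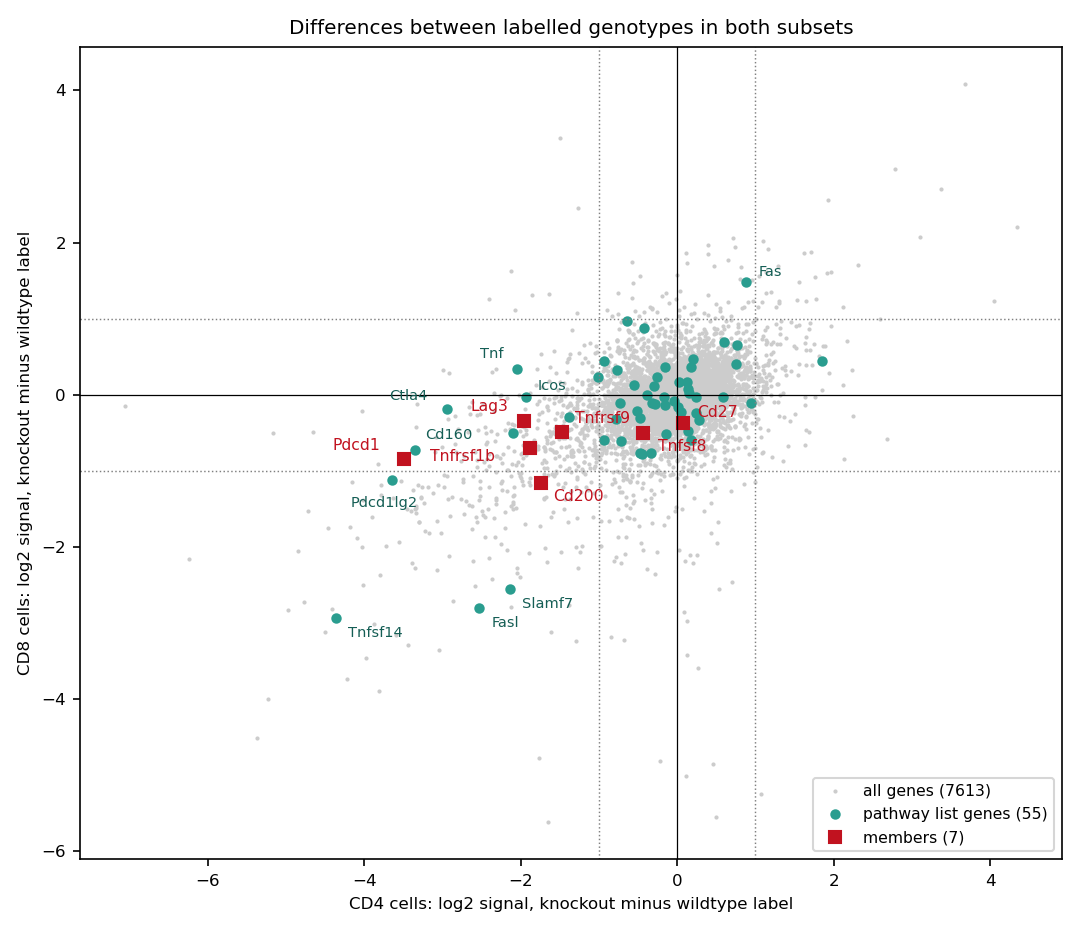
Log2 difference of signal, knockout minus wildtype label, in CD4 cells (horizontal) and CD8 cells (vertical), for 7613 genes above the floor on an array of each pair (grey), 55 pathway list genes (green) and the 7 members (red squares). Dotted lines mark 2-fold; Cd200 is the member beyond both lower lines, Tnfsf14, Fasl, Slamf7 and Pdcd1lg2 also lie there, and Fas lies on the higher side of both axes.

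The genes most like each member over the 4 arrays were found by the root mean square difference of log2 values centred per gene, among the 6881 other genes with all 4 arrays above the floor. Of the 7 members 5 could be compared this way. With 4 values per gene and 6881 genes to pick from, close matches are easily found. Whether these genes share more than their values here was not tested. Nearest to Cd200 were Ckb, a creatine kinase gene, at 0.24, Tnfrsf4 at 0.27 and Crmp1 at 0.33, where the median gene lay at 1.28. Tnfrsf1b, by its brighter probe set, was matched by Mmd at 0.02, Evi2a at 0.06 and Rrm1, a subunit of ribonucleotide reductase, at 0.07 (median 0.76). Its other probe set, which ordered the knockout arrays the other way, was not compared. Tnfrsf9 was matched by Rnf43 and Slc43a3 at 0.04 each and by Creb3l2 at 0.07 (median 0.66). Cd27 lay near Gne (0.01), Luc7l and Herpud1 (0.02 each), with a median of 0.23, and Tnfsf8 near Rap2a (0.03), Nt5dc3 and Arhgef2 (0.04 each), with a median of 0.32.

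In the RefSeq annotation (GRCm38.p6), Tnfrsf9, Tnfrsf1b and Tnfsf8 lie on chromosome 4, Lag3 and Cd27 on chromosome 6, Pdcd1 on chromosome 1 and Cd200 on chromosome 16. Lag3 lies next to Cd4, whose signal was level between the labelled genotypes in CD4 cells (5470 against 5901) while that of Lag3 was 3.87-fold lower. Its neighbour on the other side, Ptms, was lower by 1.63-fold in CD4 cells and by 2.42-fold in CD8 cells. Tnfrsf1b lies between Dhrs3, which was at least 3.42-fold lower in CD4 cells, and Tnfrsf8. Tnfrsf9 lies beside Park7, which was 1.24-fold higher in CD4 cells, and 1.10-fold lower in CD8 cells, and Pdcd1 beside Fam174a, which was level in CD4 cells (2513 against 2504).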

How the data were processed

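The deposited values are linear signal intensities of 22690 probe sets on 4 arrays, made by the authors with GCOS 1.4 and MAS5 per the submitters' processing notes; no label names later steps or a genome build. The 2% trimmed means of 1000.4 to 1000.5 are those of scaled arrays. Detection calls were not used here. After 64 control probe sets were left out, 20380 had 1 gene symbol in the platform annotation, 691 several (not used) and 1555 were not listed; 20351 matched RefSeq by gene ID. The probe set of highest mean log2 signal stood for its gene (12393 genes). Signals up to the floor of 93.9 were set to it, a fold with 1 array at the floor is a bound, and no fold is given with both there.

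Models were fitted with limma 3.58.1 (R 4.3.3) on the 8596 genes that passed the floor on any array, with 5.11 prior degrees of freedom; its error is no spread between animals. Data were simulated for the genotype-label effect on these genes, with equal effects in both subsets and noise set by signal level alone. There limma called 40 of 40 genes changed by a log2 value of -2, 33 of 40 by -1 and 28 of 40 by 1. It also called 11 of 8396 unchanged genes. Measured genes also differ in spread and between the subsets, so these counts do not give the share of real changes called. Python 3.11.15 was used for all else, with pandas 2.3.3, numpy 2.4.6 and, for figures, matplotlib 3.10.9.

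The members and lists were chosen with earlier results of these data known. Named are the 7 members; from each pathway list up to 3 genes each way with the largest fold of at least 2; the binding partners of members; Cd44, Cd4, Cd8a, Cd74, Foxp3 and Cxcr5 among markers; and the 3 genes most like each member. Genes named beside these (such as Cd28, Maf and the chromosomal neighbours) were chosen after their values were seen. Alternatives were the floor, a pseudocount of 16, 2 scalings, other choices of probe set, no trend and genes above the floor on all arrays.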

Additional observations from a re-analysis of the deposited data

Results flagged for a closer look

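Some members and named pathway genes differed in opposite directions in the subsets, each on 1 pair of arrays per subset. No such difference was tested. Other list genes did so too, such as Slamf1 (-0.93 in CD4 and 0.44 in CD8 cells) and Tank (-0.43 and 0.88). The share of all genes with opposite directions was not counted. Of 8124 genes 51.9% were lower in CD4 cells, and of 7613 genes 31.8% were lower in both subsets. Knockout minus wildtype label, the log2 difference of Cd27 was 0.07 in CD4 and -0.37 in CD8 cells, that of Cd274 was -0.26 and 0.23, that of Tnfrsf18 was -1.01 and 0.23, and that of Tnf was -2.04 and 0.34. Cd200r1 was at -0.64 in CD4 cells and at 0.97 or more in CD8 cells, where the wildtype array lay below the floor. CD8 minus CD4, Cd27 was at 0.20 on the wildtype and -0.24 on the knockout arrays. Tnfrsf1b was at -1.0 on the wildtype and 0.19 on the knockout arrays by its brighter probe set, and the other probe set gave -0.40 and -0.72.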

How the results depend on the processing

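In CD4 cells 4 to 6 members or member probe sets were at least 2-fold lower with the knockout label under each of the 9 alternatives (5 as reported), and on the wildtype arrays 3 to 5 were lower in CD8 than in CD4 cells. The CD8 count of 1 became 3 when the floor was the 25th percentile, without a floor or with the pseudocount, 2 of 10 over single probe sets, and 0 with a floor at the 60th percentile, after quantile normalization or with median centring. The count of 1 between the subsets on the knockout arrays became 3 with the lower floor, without a floor or with the pseudocount, 2 after either scaling and 0 with the higher floor. No member was 2-fold higher in any comparison under these alternatives. Median centring moved the median of all genes above the floor to 0.32 in CD4 and 0.21 in CD8 cells, from 0.01 and -0.0 as deposited.

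For the genotype label, limma called 4 members with the lower floor or none, 3 with the pseudocount, 2 when every array had to pass the floor and 0 otherwise; over all genes its 47 calls became 505, 445, 327 and 201 in these settings, 31 with the higher floor, 15 after quantile normalization, 17 with median centring, 10 with averaged probe sets, 94 over single probe sets and 0 without the trend. Between the subsets it called 2 members with the lower floor, none or the pseudocount and 1 when every array had to pass the floor; its 21 calls became 241, 221, 145 and 106 there, 9, 10 and 12 with quantile normalization, centring and averaging, and 2 without the trend. The fitted difference of Cd27 turned to 0.12 (genotype label) and 0.01 (subset) with median centring. For other changes the cause was not tested. The fit takes the subset as a covariate, which pairs the arrays by subset. No further pairing was possible, with 1 array per group and no replicate numbers in the labels.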
